A study of Homo sapiens with 2 samples.

Results

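The regions described here are the highest-scoring peaks of the transcription factor E2F1 in LNCaP-abl cells, mapped by chromatin immunoprecipitation followed by sequencing (ChIP-seq). They were chosen by the score that the authors' peak list gives each peak: all peaks on chromosomes 1 to 22 with a score of 200 or more. The rule found 533 peaks, which is 1.9% of the 28108 peaks on these chromosomes and part of a list of 28734. LNCaP-abl derives from the prostate cancer line LNCaP and grows without androgen. Cells at passages 61 to 64 were cultured in RPMI free of phenol red, with 10% serum that had been charcoal-stripped and so depleted of steroid hormones, and spent the last 3 days before harvest in androgen-depleted medium. Both an antibody pair against E2F1 and an input without antibody were processed, and the input is not analysed here. The peak list comes from 1 library with no replicate and holds no read counts, so depth is unknown. Because the score chose the peaks, all values from the list are descriptions without a test. Intervals on shares are exact (Clopper-Pearson) 95% intervals that cover counting error only, since neighbouring peaks and genes are not independent.

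E2F1 binds DNA together with a DP partner and activates genes for DNA replication when cells pass from G1 into S phase. In resting cells the retinoblastoma protein holds it inactive. Its best known site is a run of T followed by a GC-rich core, usually close to the start of transcription. A further element of cell cycle promoters is the CHR (cell cycle genes homology region), which recruits the MuvB core of the DREAM and B-MYB complexes and is known from genes that peak in G2 and mitosis.

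Promoters of genes at these peaks are printed for 8 genes, to show some that hold E2F matches, some that hold a CHR and 1 that holds neither. Each run is 300 bases long, 5′ to 3′ on the gene's strand, from RefSeq (GRCh38.p14), and base 251 is the annotated start. Capitals mark matches to the E2F motif (TTTCCCGC, TTTCGCGC, TTTGCCGC or TTTGGCGC) and to the CHR (TTTGAA), each searched on both strands. These coordinates belong to another build than the peaks, which are in hg19, and were not set against them. FANCD2 (chr3:10026187-10026486, plus strand), CDCA5 (chr11:65083991-65084290, minus), MCM6 (chr2:135876394-135876693, minus) and E2F1 itself (chr20:33686336-33686635, minus) hold E2F matches.
FANCD2: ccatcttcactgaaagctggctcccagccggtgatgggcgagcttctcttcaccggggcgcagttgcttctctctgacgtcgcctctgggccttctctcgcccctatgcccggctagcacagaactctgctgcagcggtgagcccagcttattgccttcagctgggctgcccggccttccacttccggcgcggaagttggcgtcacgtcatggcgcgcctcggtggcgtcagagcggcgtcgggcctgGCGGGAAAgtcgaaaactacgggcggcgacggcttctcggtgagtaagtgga
CDCA5: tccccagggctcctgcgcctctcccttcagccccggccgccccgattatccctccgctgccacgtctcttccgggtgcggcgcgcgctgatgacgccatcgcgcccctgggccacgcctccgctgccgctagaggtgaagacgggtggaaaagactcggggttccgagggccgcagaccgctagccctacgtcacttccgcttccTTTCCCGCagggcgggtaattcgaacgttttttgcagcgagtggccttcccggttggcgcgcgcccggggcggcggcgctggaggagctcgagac
MCM6: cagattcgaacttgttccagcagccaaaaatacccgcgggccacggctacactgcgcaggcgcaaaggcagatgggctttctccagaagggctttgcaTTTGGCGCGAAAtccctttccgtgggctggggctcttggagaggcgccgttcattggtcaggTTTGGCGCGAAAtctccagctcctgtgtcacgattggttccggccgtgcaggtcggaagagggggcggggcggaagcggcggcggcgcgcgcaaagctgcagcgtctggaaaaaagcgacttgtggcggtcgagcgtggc
E2F1: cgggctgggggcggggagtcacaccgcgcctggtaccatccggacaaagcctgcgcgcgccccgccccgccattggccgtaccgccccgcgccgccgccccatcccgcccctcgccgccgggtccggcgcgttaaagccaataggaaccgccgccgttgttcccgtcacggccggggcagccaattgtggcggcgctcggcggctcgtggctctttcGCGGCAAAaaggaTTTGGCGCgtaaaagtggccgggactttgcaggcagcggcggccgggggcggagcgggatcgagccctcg
SPC25 (chr2:168890381-168890680, minus), NUF2 (chr1:163321704-163322003, plus) and PLK1 (chr16:23678639-23678938, plus) are mitotic genes that hold the CHR and no E2F match.
SPC25: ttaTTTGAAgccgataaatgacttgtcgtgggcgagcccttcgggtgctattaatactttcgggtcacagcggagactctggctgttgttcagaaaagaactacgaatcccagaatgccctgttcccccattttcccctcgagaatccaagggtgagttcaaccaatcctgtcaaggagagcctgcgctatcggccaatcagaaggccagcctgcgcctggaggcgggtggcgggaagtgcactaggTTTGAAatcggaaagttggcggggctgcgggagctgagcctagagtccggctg
NUF2: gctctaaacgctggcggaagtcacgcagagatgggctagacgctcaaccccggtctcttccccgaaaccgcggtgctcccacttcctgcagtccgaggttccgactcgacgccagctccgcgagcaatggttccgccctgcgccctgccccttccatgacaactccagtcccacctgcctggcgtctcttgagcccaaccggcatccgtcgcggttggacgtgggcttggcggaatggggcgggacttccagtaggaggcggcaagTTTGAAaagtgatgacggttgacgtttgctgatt
PLK1: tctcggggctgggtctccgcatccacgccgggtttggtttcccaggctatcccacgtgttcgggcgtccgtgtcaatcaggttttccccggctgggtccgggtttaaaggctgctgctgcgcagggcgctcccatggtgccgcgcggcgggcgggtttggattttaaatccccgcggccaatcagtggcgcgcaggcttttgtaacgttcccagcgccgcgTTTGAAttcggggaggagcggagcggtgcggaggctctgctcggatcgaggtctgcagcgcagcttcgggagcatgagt
RAD54L (chr1:46247438-46247737, plus), at the sixth highest peak, holds neither.
RAD54L: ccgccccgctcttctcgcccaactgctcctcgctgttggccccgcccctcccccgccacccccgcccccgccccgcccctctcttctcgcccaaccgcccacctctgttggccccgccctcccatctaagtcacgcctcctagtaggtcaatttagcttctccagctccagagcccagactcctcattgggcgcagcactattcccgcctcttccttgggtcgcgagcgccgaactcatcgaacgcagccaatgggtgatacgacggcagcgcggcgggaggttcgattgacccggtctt
Positions are counted from 1 at the 5′ end of each run. FANCD2 has 1 E2F match at position 249 and CDCA5 has 1 at position 206. MCM6 has 4, as 2 overlapping pairs that begin at positions 99 and 161, and E2F1 has 2, at positions 218 and 231. The CHR begins at positions 4 and 248 in SPC25, at 267 in NUF2 and at 222 in PLK1.

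The 533 scores lay between 200.1 and 333, and their median was 232 (quartiles 214 and 256). No source used here gives the scale of the score, and it served only to rank peaks within this list. Of the 533 peaks, 306 scored at least 225, 159 at least 250, 61 at least 275 and 11 at least 300. There was no gap at the threshold. The 5 peaks just inside it scored between 200.1 and 200.3, and the 5 just outside it between 199.2 and 199.97.

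Known gene starts lay at most of the peaks. A start recalled for hg19 was within 2 kb of 441 of the 533 peaks (82.7%, 79.3 to 85.9%), and 480 of the 498 genes so named had their start inside the peak. These starts come from general knowledge, rounded to 100 bp, and were listed with the peaks in view. The share can be too low where a gene was not recalled and too high where a start was recalled wrongly, it is weighted to familiar genes, and it supports nothing by itself. The other 92 peaks carry no gene name here, which does not mean that no gene is there. Peaks without a name were narrower, with a median of 666.5 bp against 801 bp, and scored a median of 223 against 233.

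The 2 highest peaks had no known start among the recalled genes that were kept, and the genes at the 25 highest were of several kinds. The highest named peak, with a score of 315, was at SPC25, a subunit of the NDC80 complex that ties kinetochores to spindle microtubules. FANCD2, the central protein of the Fanconi anaemia pathway of crosslink repair, followed at 313. MAMSTR, a cofactor of MEF2 transcription factors and not a cell cycle gene, had 311. RAD54L, a DNA translocase of homologous recombination, had 311, TROAP, a protein of the mitotic spindle, 303, and IQGAP3, a cytoskeletal scaffold, 303.

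NUF2, another NDC80 subunit, scored 298, and RACGAP1, which builds the central spindle in cytokinesis, scored 297. BUB1B of the spindle checkpoint stood at 297, CDCA5 (sororin, a guard of sister chromatid cohesion) at 294 and PLK1, a mitotic kinase, at 294. FAAP24, a Fanconi anaemia factor, and CEP89, a centrosomal protein, share 1 peak that scored 294 and are read from opposite strands. MAD2L1 of the spindle checkpoint scored 292, DIAPH3, a formin that nucleates actin, 292, and POLD3, a subunit of DNA polymerase delta, 291. CENPW, a kinetochore protein, stood at 290 and UBE2T, the ubiquitin-conjugating enzyme of the Fanconi pathway, at 289.
CSTF2T and CSTF3, both factors of mRNA 3′ end cleavage, scored 297 and 296, and FAM200B scored 299.

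The top of the list was not all at named genes. Of the 10 highest peaks 6 had a known start, of the top 25 it was 20, of the top 50 it was 43 and of the top 100 it was 86. The highest peak of all (score 333, chr3:10028246-10028896) had none, and lay 38867 bp from the FANCD2 peak (chr3:10067764-10068479). The peaks at chr19:46430825-46431516 (score 319), chr6:53791807-53792360 (307), chr6:140254782-140255493 (306) and chr5:148349790-148350384 (300.5) were also unnamed. Their surroundings differed. The nearest other peak was 116 kb from the peak with a score of 307 and 75.1 kb from that with 306, but 25.5 kb from that with 300.5, 24.2 kb from that with 319 and 6.99 kb from the highest.

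Genes of 6 cell cycle lists were compared with housekeeping genes and with genes of the androgen receptor pathway. Every one of the 107 listed cell cycle genes had a peak of some score within 2 kb of its start, and at 68 of them (63.6%, 53.7 to 72.6%) that peak scored 200 or more. All 14 housekeeping genes also had a peak of some score, and 2 reached 200 (14.3%, 1.78 to 42.8%), among them GUSB, a lysosomal glucuronidase gene, at 212. Of 7 genes of the androgen receptor pathway none did (0%, up to 41.0%), and KLK2 and KLK3, which encode kallikreins and are classic androgen targets, had no peak within 2 kb. The highest of these 7 was FKBP5, a chaperone partner induced by androgen, at 171. The lists hold chosen, well known genes and do not stand for all genes of a process. They were written with the 10 highest sites known, and SPC25, FANCD2, RAD54L and IQGAP3, from those sites, are in them. Counts, medians and the order of the lists thus partly follow from the scores and support nothing by themselves.

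**Figure D1:**
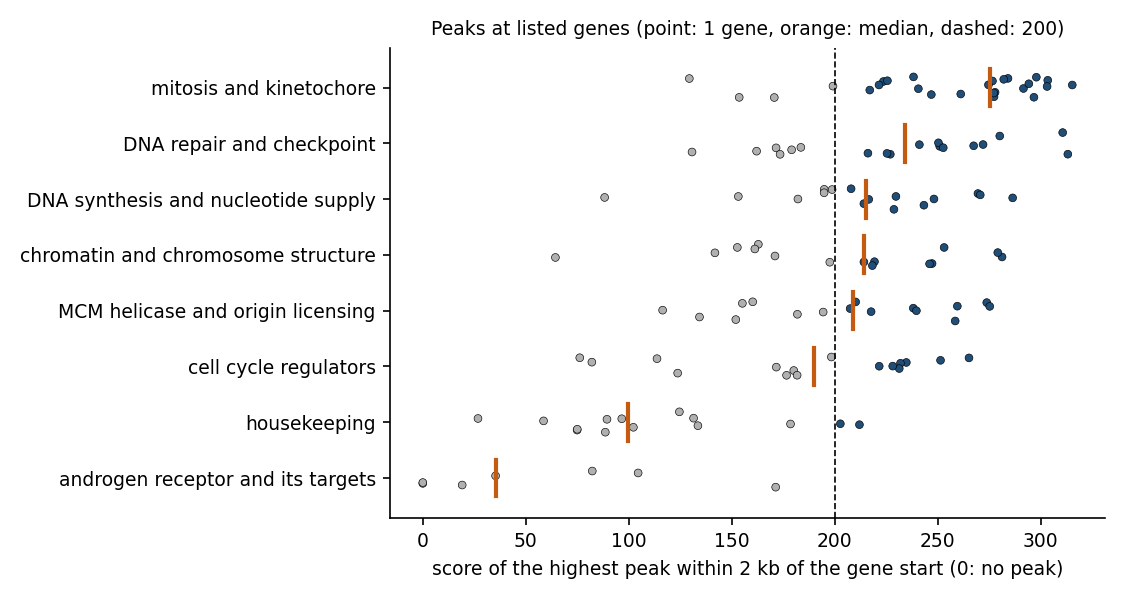
Score of the highest peak within 2 kb of each listed gene's start (x axis, 0 where there is no peak), with 1 point per gene, an orange bar at each list's median and a dashed line at 200. The mitosis list has the highest median, 276, and the androgen receptor list the lowest, 35.3.

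Mitotic genes stood highest among these lists. Of 26 genes of mitosis and the kinetochore, 22 were at a peak of 200 or more (84.6%, 65.1 to 95.6%), and the list's median score was 276. Beside the genes named above, NDC80 scored 284, the kinase AURKB 282, SPC24 278, the kinesins KIF20A and KIF23 277 each, INCENP, the scaffold of the chromosomal passenger complex, 277, and KIF2C, which takes microtubules apart, 275. CENPF, a kinetochore protein, scored 261, the checkpoint kinase TTK 247 and TPX2, which activates Aurora A, 241. BIRC5 (survivin) scored 238, CDC20, the activator of the anaphase-promoting complex, 226, and BUB1, a checkpoint kinase, 224. The motor KIF11 scored 221 and KIFC1 217. The 4 genes below the threshold ran from CENPM at 199.1 down to AURKA, the Aurora A kinase, at 129.

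Repair and checkpoint genes came next, with 12 of 18 at a peak of 200 or more and a median of 234. BRCA1, which directs homologous recombination, scored 280, the helicase BLM 272 and the nuclease EXO1 267. TIMELESS, which protects replication forks, scored 253, XRCC2, a gene of homologous recombination, 251, and the checkpoint kinase CHEK1 250.3. Its partner CLSPN scored 241 and FANCA, of the Fanconi anaemia core complex, 227. The other 6 genes scored from 131 (BRCA2) to 184 (BRIP1).

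The replication genes, known as E2F targets, were spread on both sides of the threshold. For DNA synthesis and nucleotide supply it was 10 of 16, with a median of 215: RFC4 at 286 and RFC3 at 271, both of the clamp loader, thymidine kinase TK1 at 269, POLD1 at 248, PRIM1 at 243, RRM1 at 230, RFC5 at 229, the sliding clamp PCNA at 216, the ligase LIG1 at 214 and POLE at 208. The highest of the 6 genes below 200 was the flap nuclease FEN1, at 198.7. For the MCM helicase and origin licensing it was 9 of 16, with a median of 209. The loader CDC6 scored 275, MCM3 274, the GINS subunits GINS2 and GINS1 259 and 258, MCM10 240, MCM6 238, the kinase CDC7 218, MCM5 210.1 and MCM2 207. The lowest in this list were the origin recognition subunits ORC6, at 134, and ORC1, at 116.

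Chromatin and chromosome structure genes had 8 of 15 peaks at 200 or more and a median of 214. The remodeller HELLS scored 281, and the condensin subunits NCAPG 279, NCAPD3 253, NCAPH 247, NCAPG2 246, NCAPD2 218 and SMC2 214, with topoisomerase TOP2A at 219. SMC4 was just outside at 197.6. The PRC2 subunits EED, EZH2 and SUZ12, which methylate histone H3 at lysine 27, scored 163, 153 and 64.4, the last the lowest of the list.
Cell cycle regulators were the lowest of the 6 lists, with a median of 190.03 and 7 of 16 at 200 or more (43.75%, 19.8 to 70.1%). These were CDK1 (265), the mitotic kinase, E2F3 (251), the phosphatase CDC25A (235), the pocket protein RBL1 (232), FOXM1 (231) and MYBL2 (228), which drive G2 and M genes, and E2F1 (222). The others ran from E2F8, an E2F repressor, at 198.3 to E2F2, an activator close to E2F1, at 76.2.

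In some protein complexes every listed subunit was at such a peak. These complexes were picked after the scores had been seen. All 5 subunits of the clamp loader RFC scored between 229 (RFC5) and 286 (RFC4), and all 4 of the NDC80 complex between 278 (SPC24) and 315 (SPC25). The 3 proteins of the Mis18 complex, which readies centromeres for new CENP-A, ran from 232 (OIP5) to 257 (MIS18A). The 3 non-SMC subunits of condensin I ran from 218 to 279 and those of condensin II from 237 to 253. Neither condensin was complete, since of the SMC pair they share SMC2 scored 214 and SMC4 197.6. The other complexes looked at, the larger number, were split. In GINS, the chromosomal passenger complex and DNA polymerase epsilon 3 of 4 subunits were at 200 or more. For the 7 autosomal augmin (HAUS) genes it was 3, and for the 7 Sm core (SNRP) genes 2. In the MIS12 complex, which joins NDC80 to the centromere, MIS12 scored 242 and DSN1 239, but NSL1 115 and PMF1 104. Of the MCM2 to MCM7 helicase 4 of 6 subunits were at 200 or more, with MCM4 at 194 and MCM7 at 155. Of the nuclear pore Y complex it was 5 of 9, from NUP37 at 272 to SEH1L at 60.8. RRM1 of ribonucleotide reductase scored 230 and its partner RRM2 182.

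Promoters of the named genes were searched for E2F and CHR matches. RefSeq promoters matched 420 of the 498 genes at the peaks, and 99 of them (23.6%, 19.6 to 27.9%) held an E2F motif, against 4.44% of all 15843 protein-coding promoters in the table. The CHR was in 114 (27.1%, 22.9 to 31.7%) against 12.1%, and a CCAAT box (CCAAT or its reverse), the site of the factor NF-Y, in 233 (55.5%, 50.6 to 60.3%) against 36.4%. GC content was much alike, with medians of 63.0 and 62.7%. Among promoters with a GC content of at least 60%, the E2F motif was in 24.8% (19.96 to 30.2%) at the peaks and in 5.27% overall. The core of the motif, its last 6 letters in each of the 4 forms, was in 88.1%, against 59.4% of all promoters. Of the 58 listed genes whose peak scored under 200, 12 (20.7%, 11.2 to 33.4%) held the 8-letter motif. No hg19 sequence was used, so these are shares of promoters of named genes and not of peaks.

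**Figure D2:**
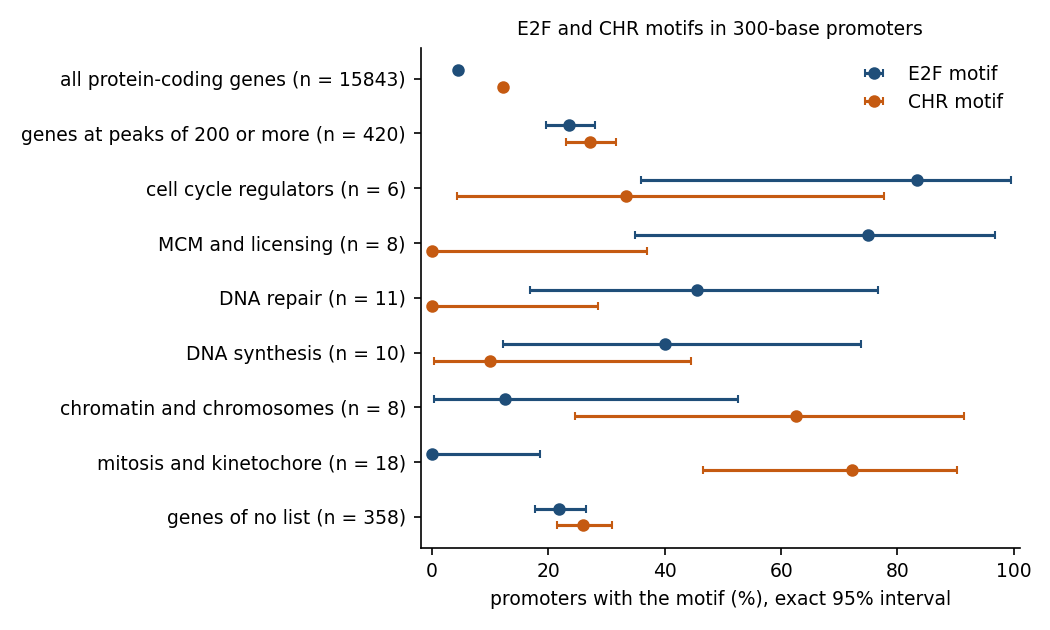
Share of RefSeq promoters (300 bases) that hold an E2F motif (blue) or a CHR (orange) among all protein-coding genes, genes at peaks of 200 or more, and the lists within them, with exact 95% intervals and the number of promoters in brackets. Mitotic genes hold the CHR in 72.2% and the E2F motif in 0%, whereas MCM and licensing genes hold the E2F motif in 6 of 8 and the CHR in 0%.

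In the mitosis list more promoters held a CHR than an E2F motif, and in the MCM and licensing list the reverse held. Of the 18 mitotic genes at the peaks with a promoter in the table, 13 held a CHR (72.2%, 46.5 to 90.3%) and 0 an E2F motif (up to 18.5%). Of the 15 CHR matches in them, 11 had their centre within 50 bases of the start. Among the 8 promoters of the MCM and licensing list 6 held an E2F motif and 0 a CHR. The regulators held the E2F motif in 5 of 6, repair genes in 5 of 11 with the CHR in 0, and DNA synthesis genes in 4 of 10 with the CHR in 1, that of RRM1. Chromatin genes held the CHR in 5 of 8 and the E2F motif in 1, that of HELLS. These lists are small. The intervals of the E2F share do not overlap between the mitosis list and the MCM and licensing list (34.9 to 96.8%), and those of the CHR share do not either (0 to 36.9% in the MCM and licensing list). The shares over all promoters were 4.44 and 12.1%, so a count of 0 among 18 or 8 promoters is little below them. With the core in place of the 8-letter motif the contrast in E2F shares was gone, with matches in 15 of 18 mitotic promoters (83.3%) and 8 of 8 of the MCM and licensing list. No test was run on the difference between the lists.
Among the peaks' 420 promoters 15 held both motifs, CDK1 and E2F3 among them, and 6 held more than 1 E2F match, namely HELLS, MCM3, MCM6, RBL1, E2F1 and MCM2. Promoters at peaks of 250 or more held the E2F motif in 22.5% (15.6 to 30.7%) and those at lower peaks in 24.1% (19.3 to 29.4%). For the CHR these shares were 31.8% (23.9 to 40.6%) and 25.1% (20.2 to 30.5%). All these intervals overlap between the higher and the lower peaks.

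The matches had their own letters and places. TTTCCCGC was in 59 of the 420 promoters (14.05%, against 2.18% of all promoters), TTTGGCGC in 23 (5.48 against 0.89%), TTTCGCGC in 18 (4.29 against 0.814%) and TTTGCCGC in 4 (0.952 against 0.713%). TTTGCCGC was thus close to its share over all promoters. Of the 107 E2F matches at these genes 47 (43.9%) were centred within 50 bases of the start, and 35.1% of those in all promoters. For the CHR it was 63 of 131 (48.1%) and 24.8%. A match is a string of letters and not a shown binding site.

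Some peaks lay at starts of paired genes. Of the 533 peaks 57 had more than 1 known start within 2 kb, and at all 57 the starts were on opposite strands. The starts were recalled with the peaks in view, so these counts describe the recalled list. No share over all peaks can be set beside them. KIF20A and BRD8 shared a peak of 277, CDCA3 and USP5 one of 278, OIP5 and NUSAP1 one of 232 and ALYREF and ANAPC11 one of 208. In the RefSeq table, 118 of the 420 genes (28.1%, 23.8 to 32.7%) had another coding start on the opposite strand within 1 kb upstream, against 11.3% of all coding genes. Among the 58 listed genes whose peak scored under 200 it was 20 (34.5%, 22.5 to 48.1%). These shares also depend on which genes were recalled. Both genes of a pair count where both were named, as with CEP89 and FAAP24. Which of the paired genes a peak belongs to cannot be told from a peak list.

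The peaks were wide for this list but of a narrow range. The median width was 779 bp (quartiles 695 and 904 bp), and 456 of 533 were between 500 and 1000 bp. The median width climbed with the score up to a point: 245 bp for peaks of 2 to 10, 389 bp for 10 to 50, 695 bp for 50 to 100, 753 bp for 100 to 150 and 779 bp for both 150 to 200 and 200 or more. Score and width had a Spearman correlation of -0.03 among the 533 peaks and of 0.80 over all 28108. Both measures come from the same peak calls.

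**Figure D3:**
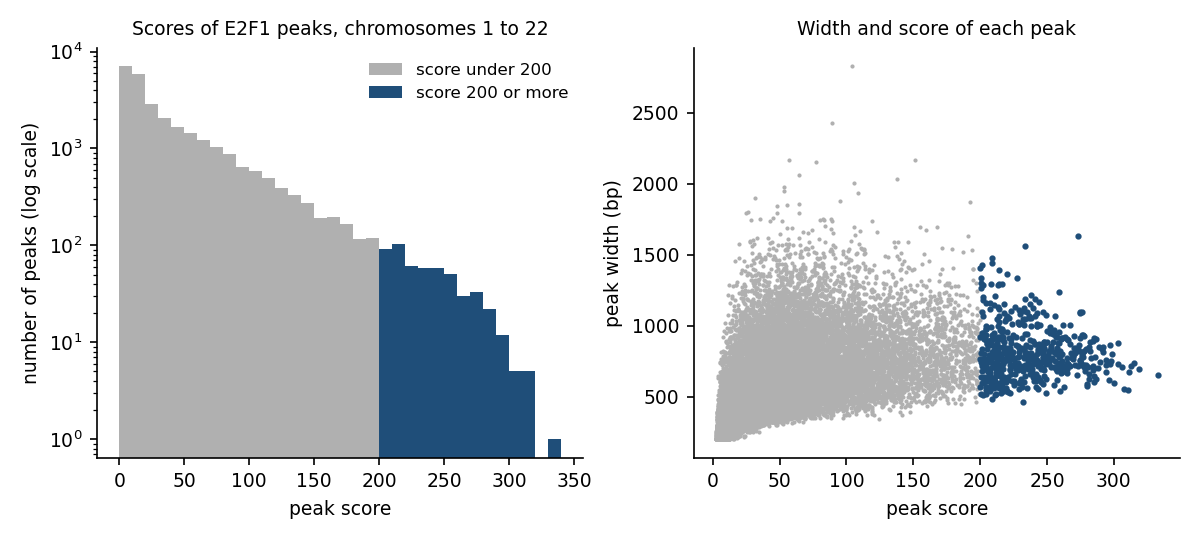
Left, number of peaks (log scale) by score in steps of 10, with peaks of 200 or more in blue. Right, width in bp against score for each of the 28108 peaks on chromosomes 1 to 22. The cloud flattens at high scores, and the 533 blue peaks lie between 465 and 1630 bp.

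Peaks over 1000 bp made up 75 of the 533 (14.1%, 11.2 to 17.3%), against 6.81% of all 28108 peaks, and the highest of the 75 scored 276. Such width was not particular to the highest scores. Peaks of 150 to 200 had an upper quartile of 961.5 bp and a maximum of 2167 bp, against 904 and 1630 bp for the 533. The widest of the 533, with 1630 bp, was at H1-2, a linker histone gene of the chromosome 6 histone cluster (chr6:26055246-26056875, score 274). TUBA1B, an alpha-tubulin gene, had 1563 bp (chr12:49524020-49525582, score 234), and HMGB2, a chromatin protein gene, 1478 bp (chr4:174255384-174256861, score 209). At the other end, an unnamed peak was 465 bp wide (chr14:59910841-59911305, score 232), and GCHFR, a regulator of GTP cyclohydrolase, had 486 bp (chr15:41055316-41055801, score 209). SLC35E3 had 512 bp (chr12:69140348-69140859, score 211).

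The share of high-scoring peaks with a close neighbour was below that of the whole list. Another peak of any score lay within 5 kb, edge to edge, of 69 of the 533 peaks (12.9%, 10.2 to 16.1%), against 27.2% of all 28108. Within 1 kb it was 38 (7.13%, 5.09 to 9.65%) against 17.3%. At 20 kb the difference was small, at 49.5% (45.2 to 53.9%) against 55.5%, and at 100 kb 94.2% (91.8 to 96.0%) had a neighbour, against 91.2%. The share with a peak within 1 kb was lower in each step above a score of 10, from 19.9% for 10 to 50, to 17.1, 13.3 and 9.86% in the steps up to 200. The median width was larger in each of these steps up to 200 as well, and its part in the shares was not tested.

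**Figure D4:**
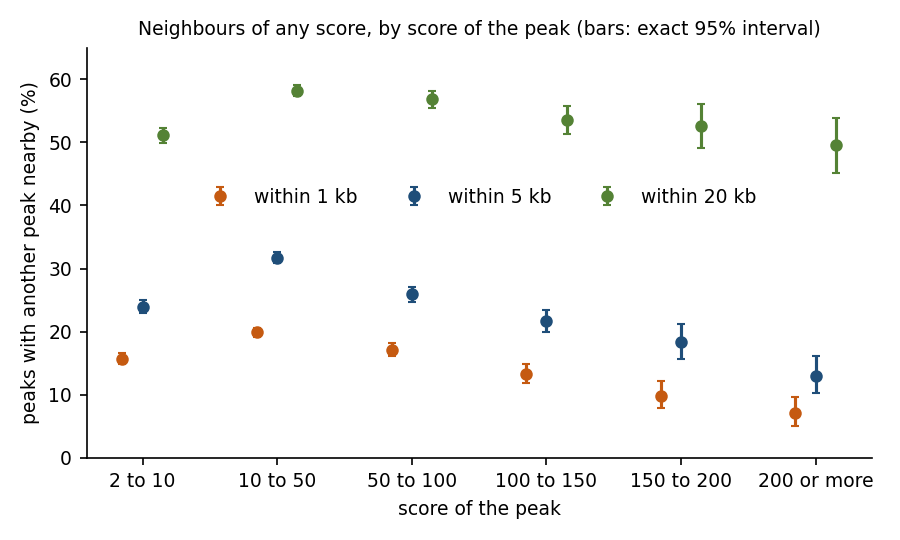
Share of peaks with another peak of any score within 1, 5 or 20 kb, by the score of the peak, with exact 95% intervals. The shares within 1 and 5 kb are highest for scores of 10 to 50 (19.9 and 31.7%) and lowest for 200 or more (7.13 and 12.9%).

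The neighbours that did lie close were weak, as were most peaks of the list. The 38 peaks with a neighbour within 1 kb had nearest neighbours that scored 7.07 to 73.7, with a median of 20.3, and 35 of these scored under 50. Their median width was 321 bp, and the high peak scored a median of 10.4 times its neighbour. COQ2, which makes coenzyme Q, had the closest one, at 80 bp (score 18.4). TTF2, a transcription termination factor, had one at 94 bp (37.7), PRIM2, the large primase subunit, at 108 bp (30.6), and BRCA1 at 399 bp (44.4). No peak had more than 2 neighbours within 5 kb, and 7 had 2, among them WEE1, the kinase that restrains CDK1, GTPBP3 and CSNK2B.
At any distance, the nearest other peak was a median of 20564 bp away and scored a median of 30.8, against 15914 bp and 22.98 over all peaks. The high peak scored above its nearest neighbour in 98.7% of cases, which the choice by score favours. The same held for 50.5% of all peaks and for 95.2% of those of 150 to 200. The high peak was the highest within 100 kb at 499 of the 533 peaks, the 31 without any neighbour at that distance included. That count was not made for peaks below 200.

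**Figure D5:**
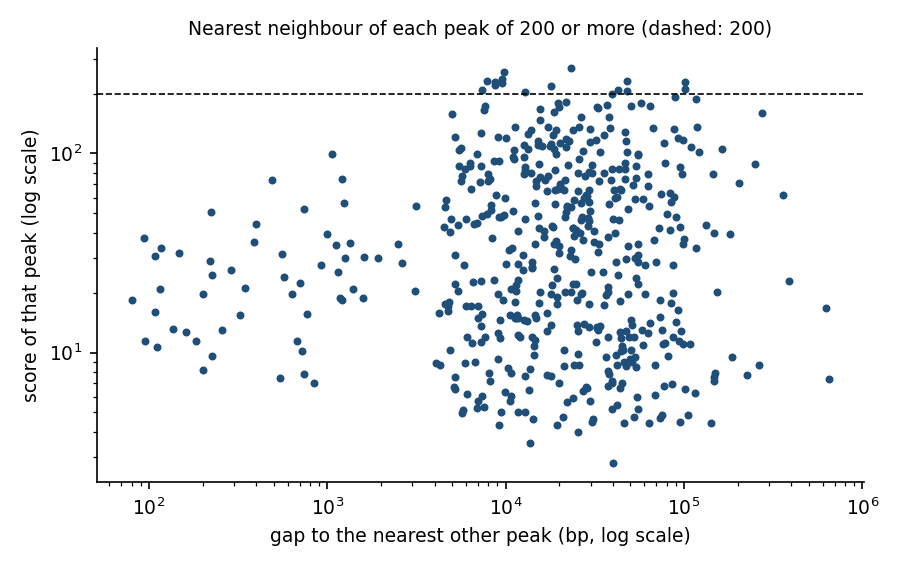
Gap in bp to the nearest other peak (x axis, log scale) and that peak's score (y axis, log scale) for each of the 533 peaks, with a dashed line at 200. Neighbours within 1 kb reach at most 73.7, and those of 200 or more lie at least 7348 bp away.

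Some stood almost alone. There were 31 peaks with no other peak within 100 kb, while 94.2% of the 533 had one, against 91.2% of all 28108 peaks. The most isolated was at ZWINT, a kinetochore protein gene (chr10:58120738-58121522, score 270), 654 kb from the next peak, which scored 7.35. CSTF2T followed at 625 kb (chr10:53459265-53460127), then MAD2L1 at 390 kb (chr4:120987534-120988385), MMS22L, a gene of fork repair, at 358 kb (score 248), an unnamed peak (chr14:57459000-57459650, score 273) at 276 kb and SPDL1, a kinetochore dynein adaptor, at 265 kb (score 238). ZWINT and CSTF2T had no other peak within 500 kb. The median was 17 other peaks within 500 kb, and the fullest surroundings were those of the lipid transporter gene ABCA7 with 72 (chr19:1039730-1040322, score 209), P4HB, a protein disulfide isomerase, with 67, and ALYREF and ANAPC11 with 65. High peaks thus occurred in both sparse and crowded regions.

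Stretches of more than 1 Mb without any peak bordered 11 of the 533 peaks, a count that was not made over all peaks. The longest, 21.1 Mb across the centromere of chromosome 1, followed an unnamed peak (chr1:121484042-121485483, 1442 bp, score 209). The next were 3.43 Mb before DIAPH3 and 2.95 Mb after MEX3C, a gene for an RNA-binding protein, chosen after its value was seen (score 202). Another unnamed peak, near the centromere of chromosome 7 (chr7:61968734-61969708, 975 bp, score 216), had 2 weaker neighbours within 5 kb, the nearest of which scored 73.7. No repeats were filtered out or looked for here.

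Spacing between the high-scoring peaks varied widely. The nearest other peak of 200 or more was a median of 1.08 Mb away, and at most 35.3 Mb, at the shared promoter of BRD9 and TRIP13 on chromosome 5. Another such peak lay within 1 Mb of 256 (48.03%, 43.7 to 52.4%), within 500 kb of 173 (32.5%, 28.5 to 36.6%) and within 100 kb of 64 (12.01%, 9.37 to 15.1%). The share within 1 Mb moved with the score threshold, to 18.9% at 250 and 73.9% at 150. No spacing expected for as many peaks was computed, so these values do not say whether the peaks cluster. The 64 formed 36 neighbouring pairs, of which 8 were within 20 kb and 16 had no weaker peak between them.

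The closest pairs joined named and unnamed loci. RMDN3 (score 223) and GCHFR (209) were 7348 bp apart on chromosome 15, and the peak shared by SHC1 and CKS1B, a cofactor of cyclin-dependent kinases (232), was 7862 bp from that of FLAD1 (246) on chromosome 1. MYBL2 (228) had an unnamed partner (220) at 8735 bp, and ZNF644 (236) one (226) at 9494 bp.
Several pairs held cell cycle genes on both sides. TK1 (269) and BIRC5 (238) were 26407 bp apart on chromosome 17, KIF20A with BRD8 (277) and CDC23, a subunit of the anaphase-promoting complex (256), 33723 bp on chromosome 5, and RCCD1 (262) and PRC1, a bundler of spindle microtubules (245), 38557 bp on chromosome 15. On chromosome 8, ESCO2, a cohesin acetyltransferase (259), and PBK, a mitotic kinase (286), were 62581 bp apart. LRR1 (236) and POLE2, a DNA polymerase epsilon subunit (225), were 88474 bp apart on chromosome 14 with 5 weaker peaks between them.

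The densest groups were on chromosomes 15, 1 and 16. On chromosome 15, 6 peaks lay within 739 kb (40885987 to 41625454), among them those at KNL1, the kinetochore scaffold (267), RMDN3, GCHFR and OIP5 with NUSAP1, and BUB1B (297) stood upstream of them at 40452927. On chromosome 1, 5 lay within 332 kb, among them those at SHC1 with CKS1B, FLAD1, HCN3 (209) and FDPS (231). On chromosome 16, 5 lay within 582 kb, at ALDOA (281), the zinc finger genes ZNF688 (204), ZNF785 (212) and ZNF689 (233), and an unnamed locus (270.4). These regions were crowded with weaker peaks too, with 32, 45 and 47 peaks of any score in the 1 Mb from the first.

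All 22 autosomes held high-scoring peaks. Chromosome 1 held 68 and chromosome 21 held 4. As a share of the chromosome's peaks, they were most frequent on chromosome 15 (2.85%, 1.90 to 4.09%) and chromosome 12 (2.66%, 1.90 to 3.62%) and least on chromosome 9 (1.12%, 0.579 to 1.94%) and chromosome 21 (1.15%, 0.313 to 2.91%). These 4 intervals overlap. Chromosome X, outside the rule, held 7 peaks of 200 or more, from 217 to 263. Together the 533 peaks covered 433 kb, or 3.02% of the bases under autosomal peaks.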

How the data were processed

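ChIP-seq libraries of E2F1 and of input were made from sonicated nuclei with a ThruPLEX-FD kit and sequenced on an Illumina NextSeq instrument, per the labels' protocols. The submitters' processing notes name MACS2 2.0.9, CASAVA 1.6.0, Bowtie and build hg19. Their settings, and any use of the input as control, are not stated in those sources. In the deposited list stand the chromosome, start, end and authors' score of each peak, with no header, summit or read count, so depth is unknown. The score was taken as deposited by the authors and used only to rank and select. Coordinates are printed 1-based.

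Python 3.11.15 (scipy 1.17.1, numpy 2.4.6, pandas 2.3.3) served for widths, edge-to-edge gaps and counts, and matplotlib 3.10.9 for figures. Distance, gene and motif functions were tested on simulated data with planted answers. No test between groups was run, since the score chose the peaks and there is 1 library.

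No hg19 annotation was at hand. Gene starts come from general knowledge, to the nearest 100 bp. Those of the gene lists were written with the 10 highest sites known, and those of other genes at the peaks with the peak list in view. As a check on 482 of the 576 listed genes, chromosome and strand matched RefSeq (GRCh38.p14) for all 482, and the spacing to a listed neighbour was within 1 kb of that in RefSeq for 449. The rest may have other annotated starts and were kept, but 4 further genes were dropped after this comparison. A peak at any of the dropped genes would carry no name for them here. No coordinate was converted. Peaks, gene lists and complexes were chosen with earlier results of these data known.

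Named genes were those at the 25 highest peaks, at pairs within 100 kb, at the 3 widest and 3 narrowest peaks, at peaks with the most and fewest neighbours, and genes of the lists. Subunits of complexes and the shared promoters named as examples were chosen after their values were seen. Results of a few genes that the rule names are not reported here. Motifs were searched in RefSeq promoters (250 bases before to 50 after the start), using the first listed start of each gene, which for some genes is not the start at the peak.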

Additional observations from a re-analysis of the deposited data

How the results depend on the processing

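Of 24 alternatives over 7 results, 10 stayed within the interval of the value or, for the number of peaks, within 1.5 times it, and 14 moved. Score thresholds of 250 and 150 gave 159 and 1324 peaks in place of 533, which follows from their construction. The share with any other peak within 5 kb (12.9%) was 10.1% at a threshold of 250 and 16.2% at 150, and it was 7.13% for 1 kb and 49.5% for 20 kb. The share with another high peak within 1 Mb (48.03%) was 18.9% at 250 and 73.9% at 150, and 12.01% for 100 kb and 32.5% for 500 kb. The share of listed cell cycle genes at a high peak (63.6%) was 32.7% at 250 and 89.7% at 150, and it did not move with a distance of 1 or 5 kb. The share with a known start (82.7%) was 86.2% at 250. The share of promoters with an E2F motif (23.6%) was 88.1% with the 6-letter core, which 59.4% of all promoters hold. The median width of 779 bp was 772 bp at 250 and the same 779 bp at 150 and with X and Y. No paired analysis was possible because there is a single peak list, and for the same reason no replicate could be left out. Without read counts, the limits set by depth are unknown.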
